A study of Mus musculus with 38 samples.

Results

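STAT4 loss was followed in T helper 1 (Th1) cells that still carry their own T-bet gene, in 2 matched culture pairs that hold 4 of the 38 samples of a mouse series on STAT proteins and active enhancers. The pairs were taken by their labels: STAT4 KO Th1 against WT Th1 (replicate 1) without a vector, and STAT4 KO Th1 against WT Th1 with a control retrovirus. The question here is which genes respond to the loss of STAT4 alike in both cultures and which respond in 1 of them.

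All 4 libraries came from CD4 T cells of spleen and lymph nodes of C57BL/6J mice, sorted as naive cells, polarised to Th1 in vitro and restimulated for 2 h with plate-bound CD3/CD28 antibodies and IL-12. The mutants are labelled STAT4 tm1 (STAT4KO); the labels do not say which part of the gene this allele lacks. The no-vector pair is labelled day 7. The control-vector pair is labelled day 5 in 1 field and 7 days in another, and is called the day 5 pair below. Its naive cells were activated with CD3 and CD28 antibodies and anti-IL-4 for 16 h, infected with a virus carrying a human NGFR marker that lacks its intracellular domain, then grown with IL-12 at 10 ng/mL plus anti-IL-4, and later with IL-12 plus 50 U/mL of IL-2. Whether infected cells were sorted before sequencing is not stated by the labels. Each group was 1 library, and the labels do not say how many mice it came from. Day, virus and culture batch therefore cannot be told apart when the pairs differ, and each p-value below reflects the spread between single libraries, part of which may be technical.

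STAT4 is the transcription factor that the IL-12 receptor activates: bound IL-12 brings the receptor chains IL-12Rβ1 and IL-12Rβ2 together, their kinases phosphorylate STAT4, and STAT4 enters the nucleus and binds DNA. In CD4 T cells this pathway drives production of interferon-γ and keeps up the receptors for IL-12 and IL-18. T-bet, encoded by Tbx21, is the other main Th1 factor and binds many of the same genes.

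Expression is given in FPKM, the deposited measure of fragments scaled by transcript length and by the number of mapped fragments, and differences as STAT4 KO minus WT on the log2(FPKM + 1) scale, which understates changes of low genes. A gene was measured when it reached 3 FPKM in at least 1 library of each pair; 8155 of 23700 entries did, and 7290 of these were at 3 FPKM or more in all 4 libraries. Between 9793 and 10092 genes per library reached 1 FPKM. The tables give no read counts; the Cufflinks 95% bound lay 8% to 8.54% above the value for genes at 3 to 10 FPKM and 1.84% to 2.11% above it from 100 FPKM, which covers counting error only. The 5 CD4 T cell markers summed to 824.1 and 464.3 FPKM in the day 7 and day 5 STAT4 KO libraries, against 929.8 and 538.6 FPKM in WT, while markers of B cells stayed at or below 0.885 FPKM in sum, of myeloid cells at or below 0.25 and of NK cells at or below 0.112. Among the CD4 T cell markers, Cd28 was at 56.1 and 31.6 FPKM in STAT4 KO, against 102.9 and 105.9 FPKM in WT. Cd3d and Cd3g were lower in STAT4 KO in both pairs, by less. Cd4 and Cd3e were lower at day 7 and higher at day 5. The 2 CD8 T cell markers summed to 2.94 and 3.17 FPKM in the day 7 and day 5 STAT4 KO libraries, against 4.50 and 2.54 FPKM in WT, and their part in the values of cytotoxic genes was not tested. The median difference over all measured genes was 0.125 in the day 7 pair and −0.005 in the day 5 pair, so gene lists are given relative to these medians. A second WT Th1 library without a vector, replicate 2, stood apart from replicate 1, with 2229 of 8092 genes at least 2-fold apart. Small RNA genes took 21.1% of summed FPKM in it and 22.6% in T-bet KO, against 4.61% to 5.58% in the 4 libraries of the pairs; its part in the values set against these libraries was not tested. Replicate 2 is in neither pair, and its values are given where they bear on a result.

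Stat4 itself (mm9 chromosome 1, 52065088 to 52164028) was at 17.6 FPKM in STAT4 KO, against 60.8 FPKM in WT, at day 7. It was at 7.57 FPKM in STAT4 KO, against 41.0 FPKM in WT, at day 5. Both knockout libraries were below both WT libraries of the pairs, and the mean difference over the pairs was −2.01 ± 0.23 (standard error; limma with Benjamini-Hochberg adjustment over all genes, adjusted p = 0.0403). WT replicate 2 had 15.1 FPKM, below the day 7 STAT4 KO library, and with it in place of replicate 1 the call was lost. The transcript was thus reduced but present in the STAT4 KO libraries. Tbx21 was at 47.9 FPKM in STAT4 KO, against 88.4 FPKM in WT, at day 7, and at 35.1 FPKM in STAT4 KO, against 61.0 FPKM in WT, at day 5. Its 2 differences were close to each other, at −0.87 and −0.78, and their mean of −0.83 ± 0.16 did not pass the test (adjusted p = 0.0773). WT replicate 2 had 152.9 FPKM of Tbx21. With it in place of replicate 1 the mean was −1.22, again not called.

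The common effect of STAT4 loss, the mean of the 2 pair differences, was tested with a spread shared over 12 libraries of the series. Besides the 4 libraries of the pairs, these were the T-bet vector pair and pairs of STAT6 KO and WT Th2 cells. The Th2 pairs had no vector, the control vector or a GATA3 vector. The spread came from disagreement among the STAT4 pairs and among the STAT6 pairs. A change of the STAT6 KO effect with the GATA3 vector therefore counts as spread. Of 8155 genes, 60 fell (0.736%) and 12 rose (0.147%) at an adjusted p under 0.05, and 1782 had an unadjusted p under 0.05. These counts rest on both pairs and on the choice of WT library. Leaving out the day 7 pair left 1 gene lower and 0 higher, leaving out the day 5 pair left 3 and 3, WT replicate 2 in place of replicate 1 gave 7 and 2, and the 4 libraries alone gave 191 and 34.

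Counted by size alone, 177 genes lay 2-fold or more below WT in both pairs (2.17%) and 26 lay 2-fold or more above it in both (0.319%). The day 7 pair had 352 genes 2-fold lower (4.32%) and 332 higher (4.07%), and the day 5 pair 283 lower (3.47%) and 65 higher (0.797%). Of the genes lower at day 7, 50.3% were lower at day 5 too, and of those lower at day 5, 62.5% were lower at day 7. The overlap of higher genes was 7.83% of the day 7 genes and 40% of the day 5 genes. Over all measured genes the 2 differences had a Pearson r of 0.558 and a Spearman rho of 0.466, a description over genes, which are not independent. For 176 of the 177 genes the Cufflinks intervals of STAT4 KO and WT did not overlap in either pair. Just inside the limit were Id2 (−1.01 and −1.93) and Synj2 (−1.33 and −1.01), and just outside were Xdh (−1.36 and −0.997) and Serpina3g (−0.997 and −1.41). In 40 of the 177, STAT4 KO was below 3 FPKM in both cultures. In bulk RNA, fewer cells that express a gene and less RNA per cell cannot be told apart.

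**Figure D1:**
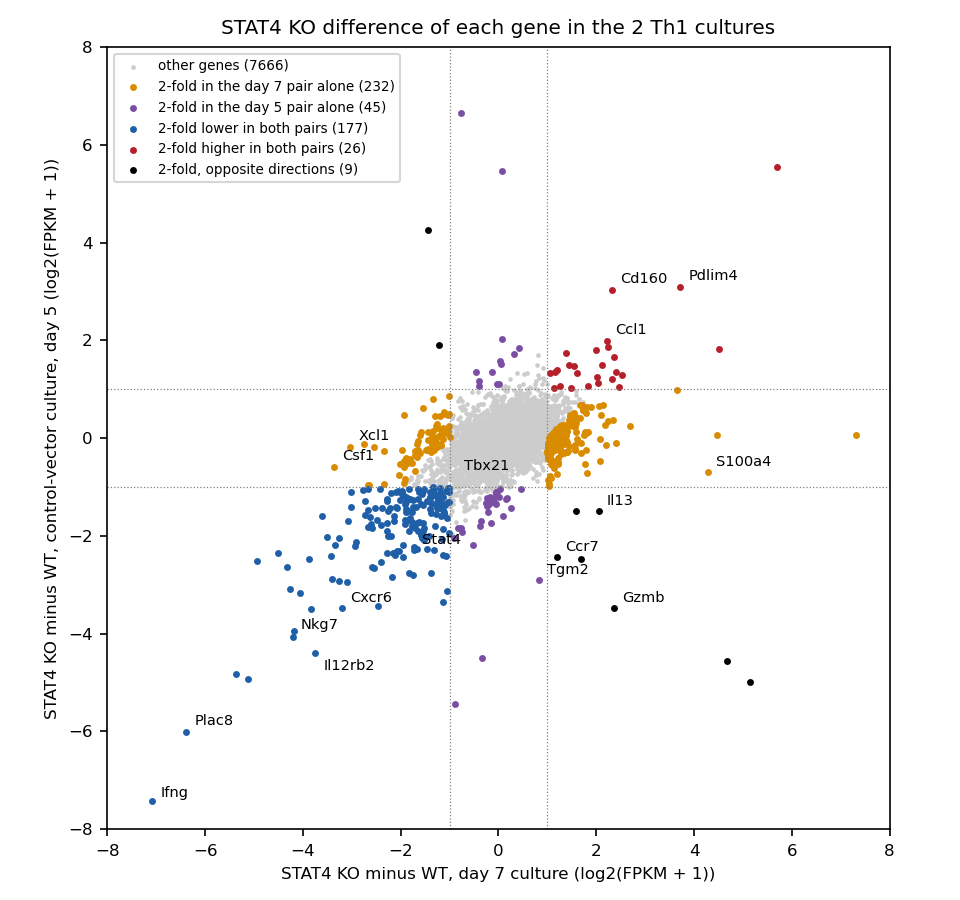
Difference of each measured gene between STAT4 KO and WT on the log2(FPKM + 1) scale, with the day 7 pair on the horizontal axis and the day 5 control-vector pair on the vertical axis; each point is 1 of 8155 genes and dotted lines mark 2-fold. The 177 genes lower in both pairs run down to Ifng, while Gzmb, Ccr7 and Il13 lie at the lower right and S100a4 and Xcl1 near the horizontal axis.

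The largest common fall was that of Ifng, the gene of interferon-γ (mm9 chromosome 10, 117878103 to 117882948). It was at 60.3 FPKM in STAT4 KO, against 8326 FPKM in WT, at day 7, and at 22.6 FPKM in STAT4 KO, against 4074 FPKM in WT, at day 5. Both WT libraries of the pairs, and WT replicate 2 at 3212 FPKM, were far above both STAT4 KO libraries. The common effect was −7.26 ± 0.18 (adjusted p = 1.16e-04). Ifng thus stayed detectable without STAT4, at 22.6 FPKM or more.

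Receptor genes of the IL-12 and IL-18 pathways showed the same pattern with 1 exception. Il12rb2, the inducible IL-12 receptor chain, was at 6.47 and 1.89 FPKM in the day 7 and day 5 STAT4 KO libraries, against 99.9 and 60.0 FPKM in WT. The fall of −4.08 ± 0.34 passed the test (adjusted p = 0.0132). Il12rb1, the other chain, was at 12.5 and 28.9 FPKM in STAT4 KO, against 7.14 and 28.1 FPKM in WT. Its mean difference was 0.39 and was not called (adjusted p = 0.612), and it turned to −0.44 with WT replicate 2 in place of replicate 1. Il18r1, a chain of the IL-18 receptor, was at 68.1 and 23.4 FPKM in STAT4 KO, against 328.2 and 96.5 FPKM in WT, and fell by 2.13 ± 0.25 (adjusted p = 0.0403; not called with WT replicate 2 in place). Il18rap, the partner chain, was at 33.1 and 12.4 FPKM in STAT4 KO, against 217.0 and 46.2 FPKM in WT, a mean of −2.24 ± 0.51 that was not called (adjusted p = 0.0977). In Il12rb2, Il18r1 and Il18rap each STAT4 KO library was below the WT library of its culture, and in Il12rb1 neither was.

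Promoter windows of the named falling genes are shown because these genes moved together in both cultures and the protein removed binds DNA. STAT proteins bind the motif TTCNNNGAA, which reads the same on both strands. Of the genes with the largest falls, 9 had a window in the RefSeq promoter table (build GRCm38.p6, 250 bases before to 50 after the start), and these 3 hold the motif, in capitals, printed 5′ to 3′ on the gene's strand:
Ifng: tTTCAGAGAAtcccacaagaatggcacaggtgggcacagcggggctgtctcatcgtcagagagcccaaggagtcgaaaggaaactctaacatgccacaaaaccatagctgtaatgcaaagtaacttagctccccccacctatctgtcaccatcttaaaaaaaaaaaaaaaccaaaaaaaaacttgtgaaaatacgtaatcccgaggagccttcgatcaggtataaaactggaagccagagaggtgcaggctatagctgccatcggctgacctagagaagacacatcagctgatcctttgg
Nkg7: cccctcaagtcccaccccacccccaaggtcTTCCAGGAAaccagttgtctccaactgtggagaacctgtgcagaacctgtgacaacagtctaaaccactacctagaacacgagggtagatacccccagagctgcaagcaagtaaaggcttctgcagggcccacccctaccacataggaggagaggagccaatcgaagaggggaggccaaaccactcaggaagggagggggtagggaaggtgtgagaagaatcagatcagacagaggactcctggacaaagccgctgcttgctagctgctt
Il12rb2: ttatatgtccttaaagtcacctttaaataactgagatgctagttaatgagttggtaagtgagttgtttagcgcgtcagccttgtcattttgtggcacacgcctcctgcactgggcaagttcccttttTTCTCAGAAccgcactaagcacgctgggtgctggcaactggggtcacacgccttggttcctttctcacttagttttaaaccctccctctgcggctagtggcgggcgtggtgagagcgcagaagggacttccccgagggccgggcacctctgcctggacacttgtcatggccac
The windows lie at chr10:118440796-118441095 (plus strand), chr7:43436888-43437187 (plus strand) and chr6:67376139-67376438 (minus strand). The motif starts 249 bases before the start of Ifng, 220 before that of Nkg7 and 123 before that of Il12rb2. Among genes with a window, it occurred in 20 of 129 genes 2-fold lower in both pairs (15.5%) and in 491 of 5875 measured genes (8.36%). A gene was counted when any of its windows held the motif. Counted by window, it occurred in 2726 of 32851 windows in all (8.3%). The share was 11.1% for genes 2-fold higher in both pairs (2 of 18), 8.98% for genes of the day 7 pair alone (15 of 167) and 14.8% for genes of the day 5 pair alone (4 of 27). These are letter matches, and no test was made of them.

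Plac8 and Cxcr6 were among the other large common falls. Plac8, a gene of activated leukocytes, was at 11.1 and 1.79 FPKM in the day 7 and day 5 STAT4 KO libraries, against 1008 and 178.3 FPKM in WT (−6.20 ± 0.42, adjusted p = 0.00884). Cxcr6, a chemokine receptor of effector T cells, was at 4.64 and 5.36 FPKM in STAT4 KO, against 51.2 and 70.1 FPKM in WT (−3.35 ± 0.14, adjusted p = 0.00106). For both genes the STAT4 KO libraries lay below both WT libraries of the pairs.

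Nkg7, a granule membrane protein gene of cytotoxic lymphocytes, was at 15.6 and 8.41 FPKM in the day 7 and day 5 STAT4 KO libraries, against 306.4 and 157.9 FPKM in WT (−4.14 ± 0.33, adjusted p = 0.0132). Ccl3, a chemokine gene, was at 74.8 and 59.7 FPKM in STAT4 KO, against 729.7 and 459.8 FPKM in WT (−3.10 ± 0.17, adjusted p = 0.00439). Both were close to equal in the 2 cultures as a difference, with gaps of −0.13 and −0.35. The test that chose these genes counts such gaps as spread, so the choice itself favoured small gaps. Ly6c2, a surface antigen gene whose reads may be shared with Ly6c1, fell by 4.07, Tmem159 by 3.67, Ubd, of a ubiquitin-like protein, by 2.92, Hopx, of a homeodomain protein without DNA binding of its own, by 2.65 and Ttc39c by 2.60. Of the genes named for their fall, Ifng, Plac8, Nkg7, Il12rb2, Tmem159 and Ccl3 were still called with WT replicate 2 in place of replicate 1; Ly6c2, Cxcr6, Hopx and Ttc39c were not, and Ubd, at 0.491 FPKM in that library, did not reach 3 FPKM in the pair.

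Named as higher are the 7 genes that both passed the test and were 2-fold higher in both pairs. Pdlim4, of a protein that binds the actin cytoskeleton, was at 17.7 and 11.8 FPKM in the day 7 and day 5 STAT4 KO libraries, against 0.421 and 0.495 FPKM in WT (3.41 ± 0.27, adjusted p = 0.0132). Cd160, a receptor of cytotoxic and activated T cells, was at 37.5 and 52.9 FPKM in STAT4 KO, against 6.71 and 5.58 FPKM in WT (2.68 ± 0.20, adjusted p = 0.0115). Ccl1, a chemokine gene of activated T cells, was at 477.4 and 857.4 FPKM in STAT4 KO, against 101.7 and 215.0 FPKM in WT (2.11 ± 0.27, adjusted p = 0.0439). In all 3 both STAT4 KO libraries were above both WT libraries of the pairs. Ppic (1.90), of a cyclophilin, Tspan32 (1.81), of a tetraspanin, Hivep3 (1.47), of a zinc finger protein, and Tesc (1.25), of a calcium-binding protein, also rose. With WT replicate 2 in place of replicate 1, Pdlim4 and Cd160 were still called and the other 5 were not.

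**Figure D2:**
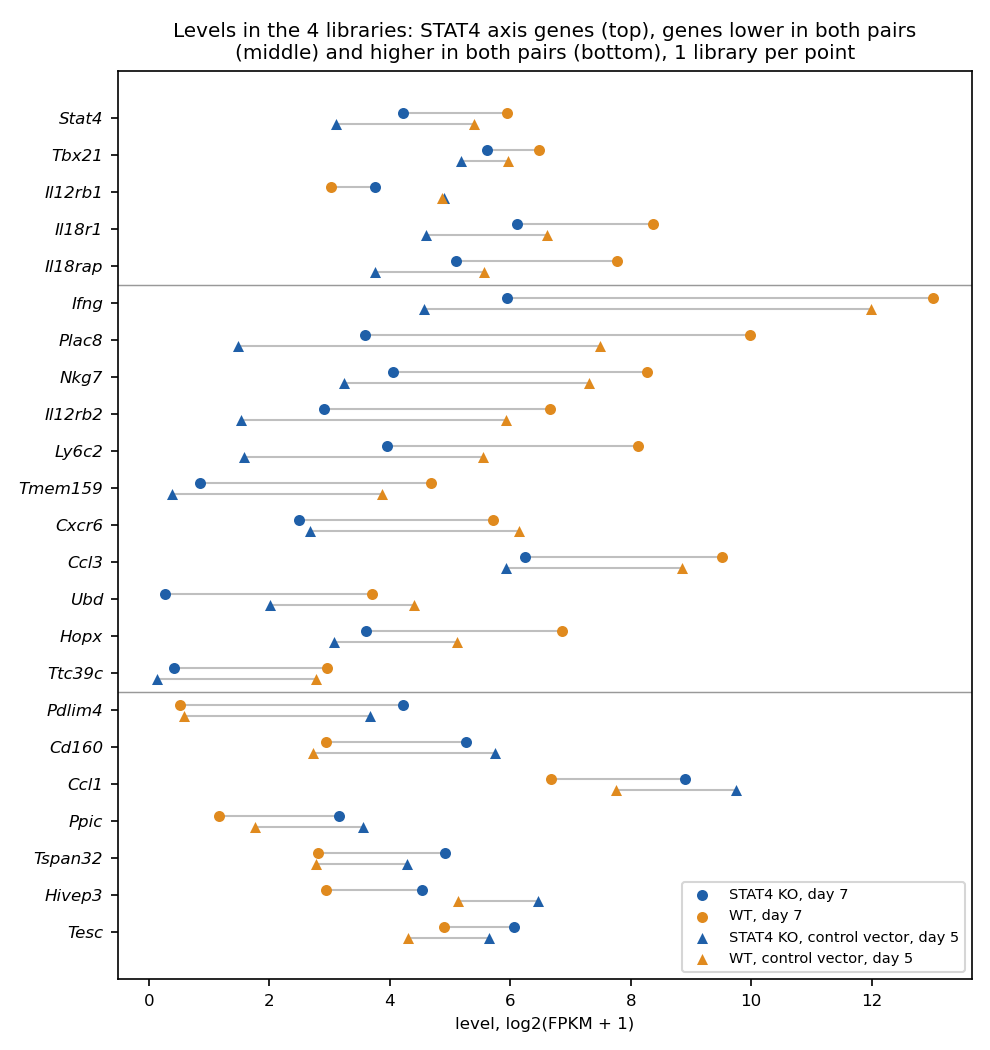
Levels on the log2(FPKM + 1) scale (horizontal axis) in the 4 libraries, STAT4 KO in blue and WT in orange, circles for day 7 and triangles for the day 5 control-vector culture, 1 library per point and so no error bar. In the middle block every STAT4 KO point lies left of the WT point of its culture, and in the bottom block right of it, as the choice of these genes requires.

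The gene lists used below were chosen with earlier results of these data in view, and their counts are read against 0.736% of measured genes called lower and 2.17% 2-fold lower in both pairs. Counts of genes below 0 are read against 3199 of 8155 measured genes at day 7 and 4136 at day 5. Of 22 measured cytokine receptor genes, 3 fell (Il12rb2, Il18r1 and Il7r), none rose and 19 were not called; 9 were 2-fold lower in both pairs and 1, Ifngr2, was 2-fold higher. Il7r, the IL-7 receptor chain, was at 43.6 and 9.82 FPKM in STAT4 KO, against 105.7 and 27.2 FPKM in WT (−1.32, adjusted p = 0.016). The other 2-fold lower receptors were Il18rap, Il1rl1 (−3.73), the IL-33 receptor, Il2rb (−1.55), Il10ra (−1.38), Il21r (−1.31) and Il6st (−1.17), none of them called. Ifngr2, a chain of the interferon-γ receptor, was at 29.8 and 14.8 FPKM in STAT4 KO, against 4.57 and 6.68 FPKM in WT (1.75, adjusted p = 0.0703). The median of this list relative to all genes was −0.81 at day 7 and −0.64 at day 5, and −0.42 at day 7 with WT replicate 2 in place of replicate 1.

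Among 17 T cell cytokine genes 1 fell (Ifng) and 16 were not called, with 5 lower 2-fold in both pairs. Il21 was at 1.11 and 0.0488 FPKM in the day 7 and day 5 STAT4 KO libraries, against 39.3 and 7.94 FPKM in WT (−3.67, adjusted p = 0.0871). Il10 was at 3.39 and 0.0255 FPKM in STAT4 KO, against 72.0 and 8.26 FPKM in WT (−3.61, adjusted p = 0.156), and Csf2, of the cytokine GM-CSF, was at 102.3 and 26.9 FPKM in STAT4 KO, against 1088 and 204.0 FPKM in WT (−3.14, adjusted p = 0.0603). These 3 genes had large differences in both cultures that did not pass the test. Lif was also 2-fold lower in both, and Il2, the T cell growth factor, was at 3765 and 2173 FPKM in STAT4 KO, against 2762 and 1122 FPKM in WT (0.70, not called). Tnf (0.31) and Lta (0.18) were not called.

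Of 14 Th1 transcription factor genes, 12 were below 0 in each pair, 5 were 2-fold lower in both, and 1 fell. That gene, Bhlhe40, of a basic helix-loop-helix factor, was at 85.8 and 119.9 FPKM in the day 7 and day 5 STAT4 KO libraries, against 320.2 and 345.4 FPKM in WT (−1.70, adjusted p = 0.037). Runx3 (−1.56), a partner of T-bet, Eomes (−1.68), a T-box factor related to T-bet, Id2 (−1.47) and Atf3 (−1.72) were the other 4 and were not called. The list median relative to all genes was −1.06 at day 7 (−1.60 with WT replicate 2 in place of replicate 1) and −0.82 at day 5. Irf1, an interferon-regulated factor, went the other way in both pairs. It was at 305.7 and 203.7 FPKM in the day 7 and day 5 STAT4 KO libraries, against 81.8 and 131.3 FPKM in WT (mean 1.26, not called).

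Chemokine genes split. Of 6 measured, Ccl3 fell and Ccl1 rose, and Ccl4 (−2.07) and Ccl5 (−2.61) were 2-fold lower in both pairs without a call. Of 11 cytotoxic genes, Nkg7, Ctsw and Ctsd fell, none rose and 8 were not called. Ctsw, of a cathepsin of cytotoxic cells, was at 27.4 and 6.18 FPKM in STAT4 KO, against 124.6 and 35.7 FPKM in WT (−2.25, adjusted p = 0.0457), while Ctsd, a lysosomal protease gene, fell by 0.89 (adjusted p = 0.0439). The granule serine protease gene Gzmb had no common direction and is described below. Of 27 interferon-inducible genes none was called and 2 were 2-fold lower in both pairs (Isg15 and Ifit3), with a list median relative to all genes of −0.20 at day 7 and −0.25 at day 5. Gbp2, whose reads may be shared within its gene cluster, was at 159.5 and 268.0 FPKM in STAT4 KO, against 814.9 and 516.1 FPKM in WT.

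The STAT feedback list, genes such as SOCS and PIM family members that cytokine signalling induces, had 14 measured members, none called, with Socs3 (−1.53) and Pim2 (−1.50) 2-fold lower in both pairs. Of 14 Th2 genes none was called; Nfil3, Il10 and Il1rl1 were 2-fold lower in both pairs, and Igfbp7 (2.00) and Il31 (1.59) 2-fold higher. Gata3, the main Th2 factor, was at 23.5 and 25.8 FPKM in the day 7 and day 5 STAT4 KO libraries, against 35.4 and 24.9 FPKM in WT (−0.26, adjusted p = 0.663). Among 24 glycolysis and hypoxia genes 21 were below 0 in each pair, with list medians relative to all genes of −0.60 at day 7 (−1.90 with WT replicate 2 in place of replicate 1) and −0.71 at day 5; none was called, and Egln3 (−3.49), Hif1a (−1.77), Slc16a3 (−1.76) and Aldoc (−1.62) were 2-fold lower in both. Of 17 chemokine receptor and homing genes 2 fell, Cxcr6 among them, none rose and 15 were not called. Of 11 inhibitory receptor genes Cd160 rose, and Ctla4, a brake on T cell activation, was at 64.8 and 29.0 FPKM in the day 7 and day 5 STAT4 KO libraries, against 144.4 and 306.1 FPKM in WT, without a call. Ly6c1 and Ly6c2 fell among 9 Ly6 and S100 genes, Pmaip1, of a pro-death BCL2 family protein, among 13 BCL2 family genes, and Stat4 among 10 JAK-STAT genes. None was called of 15 TNF superfamily, 7 Th17, 10 regulatory T cell, 9 follicular helper, 32 T cell receptor early response, 24 T cell receptor complex, 20 amino acid and stress response, 17 secretory pathway and 13 MHC genes.

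Naive and memory genes had list medians relative to all genes of −0.07 at day 7 (0.15 with WT replicate 2 in place of replicate 1) and 0.05 at day 5, with Il7r the 1 call among 17.

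**Figure D3:**
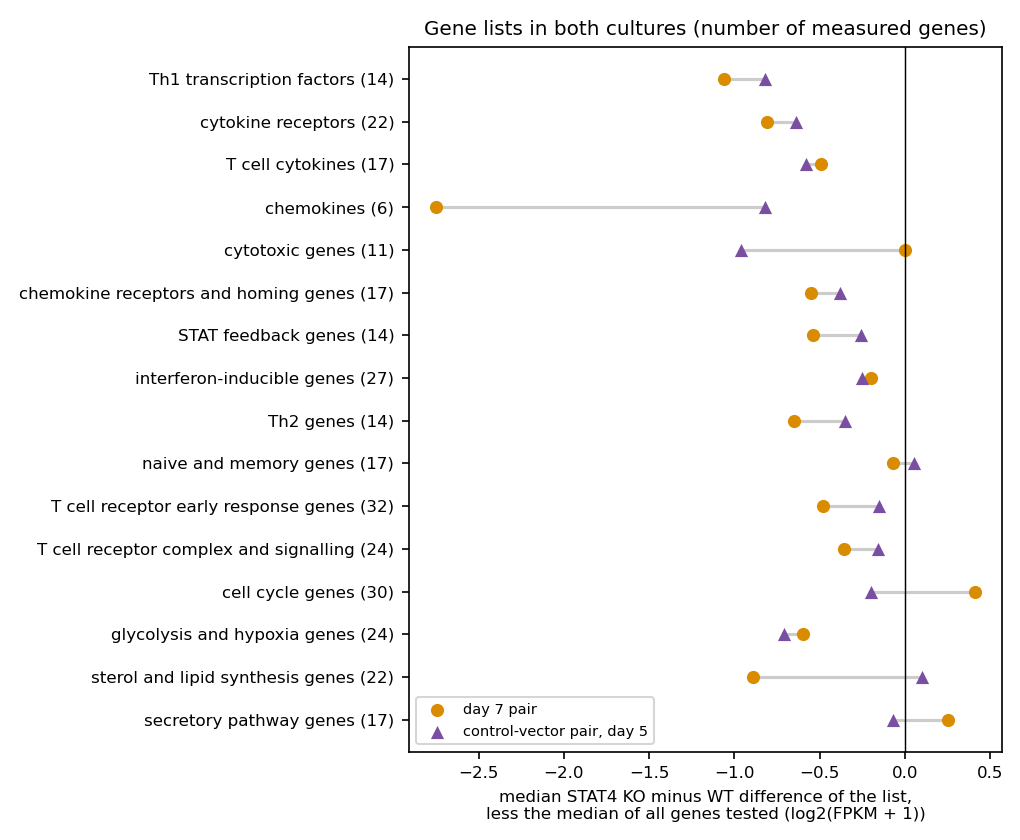
Median STAT4 KO minus WT difference of the gene lists shown, a part of the 26 lists, less the median of all measured genes. The horizontal axis is on the log2(FPKM + 1) scale. Circles stand for the day 7 pair and triangles for the day 5 control-vector pair, with the number of measured genes beside each name. All lists shown but the cytotoxic, naive and memory, cell cycle, sterol and secretory lists lie left of 0 in both pairs. Of the lists not shown, the follicular helper list was at −0.60 at day 7 (−0.15 with WT replicate 2 in place of replicate 1) and 0.30 at day 5. Chemokine, cell cycle, sterol and cytotoxic lists are apart between the pairs. The chemokine list is at −2.75 at day 7 (−2.42 with WT replicate 2 in place of replicate 1) and −0.82 at day 5. The cytotoxic list is at 0.00 at day 7 (−0.42 with WT replicate 2 in place of replicate 1) and −0.96 at day 5.

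Genes that differed between the cultures were set out by size, since the test of the difference called 1 gene (0.0123%), a short RNA listed at 0 FPKM in 1 library of each pair, against 723 with an unadjusted p under 0.05. Its spread came from the STAT6 pairs alone, with 2 residual degrees of freedom, so the gaps below are descriptions of single pairs. By size, 9 genes were 2-fold apart in opposite directions (0.11%), 232 were 2-fold in the day 7 pair alone (2.84%; 155 higher and 77 lower in STAT4 KO) and 45 in the day 5 pair alone (0.552%; 13 higher and 32 lower). The last 2 classes also needed a gap of at least 1 between the pairs.

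Among the opposite genes was Gzmb, of granzyme B, a protease of cytotoxic granules. It was at 277.2 FPKM in STAT4 KO, against 53.1 FPKM in WT, at day 7, and at 34.7 FPKM in STAT4 KO, against 395.4 FPKM in WT, at day 5. STAT4 KO was thus the higher library at day 7 and the lower at day 5, a gap of 5.84 ± 1.99 (adjusted p = 0.543). Ccr7, a homing receptor of lymph nodes, was at 105.8 FPKM in STAT4 KO, against 45.5 FPKM in WT, at day 7 and at 50.9 FPKM in STAT4 KO, against 279.1 FPKM in WT, at day 5. Il13, a Th2 cytokine gene, was at 64.1 FPKM in STAT4 KO, against 14.7 FPKM in WT, at day 7 and at 14.2 FPKM in STAT4 KO, against 42.0 FPKM in WT, at day 5. AA467197 and Spp1, of the secreted protein osteopontin, had the same directions (1.69 and −2.47; 1.59 and −1.48), and Il1r2, a decoy receptor of IL-1, had the reverse (−1.21 and 1.90), as had Gm12238, a short entry listed at 0 FPKM in WT at day 5. Spp1 was added after its values were seen. At day 7 the STAT4 KO values of Gzmb, Ccr7 and Il13 were also above WT replicate 2, at 125.2, 36.1 and 6.21 FPKM.

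At day 7 alone, S100a4, of a calcium-binding protein of motile cells, was at 131.3 FPKM in STAT4 KO, against 5.81 FPKM in WT, while at day 5 it was at 13.3 FPKM in STAT4 KO, against 22.2 FPKM in WT (gap 4.97 ± 0.69, adjusted p = 0.538). S100a6 of the same family was at 274.4 FPKM in STAT4 KO, against 59.6 FPKM in WT, at day 7 and at 83.8 FPKM in STAT4 KO, against 69.2 FPKM in WT, at day 5. Xcl1, of the chemokine lymphotactin, was at 49.7 FPKM in STAT4 KO, against 414.1 FPKM in WT, at day 7, and at 280.6 FPKM in STAT4 KO, against 317.2 FPKM in WT, at day 5. Both S100 genes were high in the day 7 STAT4 KO library, and Xcl1 was low there alone. Csf1, of the growth factor M-CSF (−3.37 and −0.59), and Art2b, of an ADP-ribosyltransferase (−2.75 and −0.11), were lower at day 7, and Ccdc164, of a ciliary protein (3.66 and 0.98), and the granzyme gene Gzmc (2.08 and −0.47) were higher. Il4, the signature Th2 cytokine gene, was at 22.4 FPKM in STAT4 KO, against 3.61 FPKM in WT, at day 7 and at 12.9 FPKM in STAT4 KO, against 9.75 FPKM in WT, at day 5.

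Cell cycle genes were the list with most members in the day 7 class, 10 of 30. Mcm2, of the replicative helicase, was at 23.6 FPKM in STAT4 KO, against 6.65 FPKM in WT, at day 7, and at 36.8 FPKM in STAT4 KO, against 39.4 FPKM in WT, at day 5. Ccne2, of cyclin E2, was at 5.65 FPKM in STAT4 KO, against 0.902 FPKM in WT, at day 7 and at 7.67 FPKM in STAT4 KO, against 13.2 FPKM in WT, at day 5. Mcm3, Mcm5, Mcm7, Tyms, E2f1, Cdk6 and Cdkn1b were likewise 2-fold higher at day 7 alone, and Aurka, a mitotic kinase gene, was 2-fold lower. For these 9 higher genes the day 7 WT library was the lowest of the 4. Mki67 (0.10 and −0.20) and Top2a (0.08 and −0.30) did not move 2-fold in either pair. The list median relative to all genes was 0.41 at day 7 and −0.20 at day 5; with WT replicate 2 in place of replicate 1 the day 7 value was 1.39.

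Sterol and lipid synthesis genes had list medians of opposite sign in the 2 cultures. Of 22, 21 were below 0 at day 7 and 8 at day 5, against 3199 and 4136 of all 8155 measured genes. The list medians relative to all genes were −0.89 and 0.10, and none was called. Insig1, of a membrane protein that restrains sterol synthesis, was at 52.2 FPKM in STAT4 KO, against 118.0 FPKM in WT, at day 7, and at 40.6 FPKM in STAT4 KO, against 35.6 FPKM in WT, at day 5. Sqle, of the enzyme squalene epoxidase, was at 29.9 FPKM in STAT4 KO, against 52.7 FPKM in WT, at day 7, and at 29.7 FPKM in STAT4 KO, against 21.9 FPKM in WT, at day 5. In both genes the day 7 WT library was the highest of the 4. The signs of both list medians relative to all genes held under quantile normalization. The cell cycle list was then at 0.37 at day 7 and −0.21 at day 5, and the sterol list at −0.76 and 0.08. Upper-quartile scaling, median centring and removal of small RNA genes shift each library nearly as a whole. They could hardly move medians taken relative to all genes.

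At day 5 alone, Tgm2, of a transglutaminase, was at 3.32 FPKM in STAT4 KO, against 31.3 FPKM in WT, while at day 7 it was at 6.62 FPKM in STAT4 KO, against 3.29 FPKM in WT. Areg, of the growth factor amphiregulin, was at 48.8 FPKM in STAT4 KO, against 132.8 FPKM in WT, at day 5 and at 128.8 FPKM in STAT4 KO, against 107.4 FPKM in WT, at day 7. In both genes STAT4 KO lay below WT at day 5 and above it at day 7. Plxdc2 (−1.59 at day 5), Akr1c12 (−2.18) and Akr1c13 (−1.74), the last 2 with reads that may be shared, were lower and Utf1 (1.35) higher. From the T cell receptor early response list, Fos, Fosl2 and Nr4a2 stood in this class: Fos was at 26.0 FPKM in STAT4 KO, against 76.5 FPKM in WT, at day 5 and at 81.3 FPKM in STAT4 KO, against 94.3 FPKM in WT, at day 7.

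**Figure D4:**
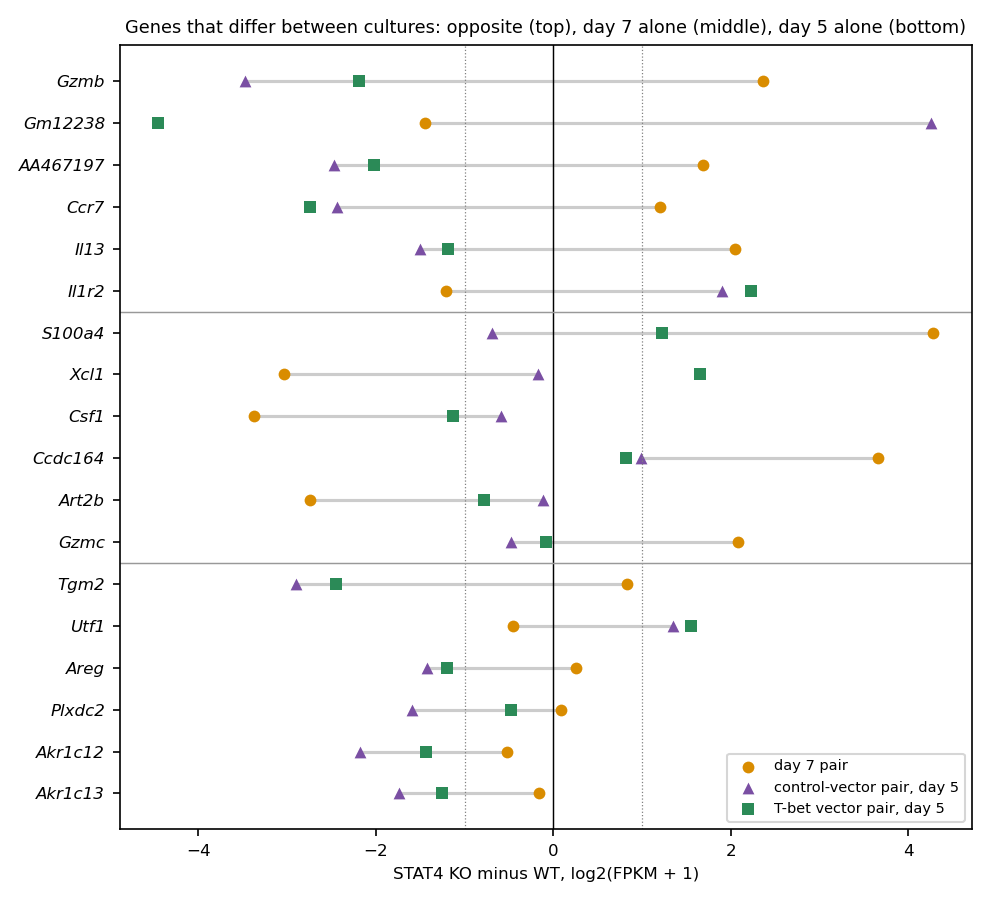
STAT4 KO minus WT difference on the log2(FPKM + 1) scale (horizontal axis) for 18 genes, with circles for the day 7 pair, triangles for the day 5 control-vector pair and squares for the T-bet vector pair, each from 1 library per group. For Gzmb, Ccr7 and Il13 the squares lie with the triangles, and for Xcl1 the square lies right of both.

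A further STAT4 KO and WT pair, infected with the same virus carrying T-bet and labelled day 5, shares no library with the other 2 pairs. In it 257 genes were 2-fold lower in STAT4 KO (3.15%) and 65 higher (0.797%). Of the 177 genes lower in both pairs 116 were 2-fold lower again (65.5%), none was 2-fold higher, and their median was −1.21, against 0.00 for all measured genes. Of the 26 higher genes 13 were 2-fold higher again and 1, a small RNA, 2-fold lower. Ccl1 was at 1560 FPKM in STAT4 KO with T-bet virus, against 292.1 FPKM in WT with it, and Cd160 at 88.0 FPKM in STAT4 KO, against 11.7 FPKM in WT. Plac8 was at 1.16 FPKM in STAT4 KO, against 65.1 FPKM in WT, and Il12rb2 at 6.62 FPKM in STAT4 KO, against 64.5 FPKM in WT, so these genes kept differences of 2-fold or more where T-bet was supplied by the virus. Tbx21 was not equal in this pair, at 136.9 FPKM in STAT4 KO with T-bet virus, against 244.6 FPKM in WT with it (−0.83). The part of this Tbx21 difference in the other differences was not tested. Ifng was at 1739 FPKM in STAT4 KO, against 5199 FPKM in WT, a difference of −1.58.

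Among the 177 genes, 14 were above −0.5 in the T-bet vector pair. Nkg7 was at 421.7 FPKM in STAT4 KO with T-bet virus, against 435.5 FPKM in WT with it. Ccl3 was at 1559 FPKM in STAT4 KO, against 1245 FPKM in WT, and Ccl4 at 3213 FPKM in STAT4 KO, against 2394 FPKM in WT. In these 3 genes the STAT4 KO value with T-bet virus was above WT with the control virus. Ccl5 (−0.47), Ctsw (−0.20) and Serpinb6b (−0.37), of a serine protease inhibitor, were of this group too. Whether the STAT4 KO effect differs between the T-bet and control viruses was not tested for these genes.

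The genes that differed between the cultures were also read in the T-bet vector pair. Of 7 opposite genes with 1 locus that are not small RNAs, 6 were 2-fold apart in the day 5 direction and 1 in the day 7 direction. Of 39 day 5 genes, 26 were 2-fold apart in the day 5 direction, and for 19 of them this was also the sign of the day 7 difference. Of 226 day 7 genes, 17 were 2-fold apart in either direction (4.87% lower and 2.65% higher). Of these, 5 had the sign of the day 7 difference and 13 that of the day 5 difference, and some matched both signs or neither. The day 5 genes were 48.7% lower and 17.9% higher by 2-fold. Among all measured genes, 3.15% were 2-fold lower in the T-bet vector pair and 0.797% higher. The vector pairs share day, virus backbone and protocol, and these cannot be told apart. The cell cycle and sterol lists had medians of −0.09 and 0.08 in the T-bet vector pair, nearer to the day 5 pair than to the day 7 pair.

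T-bet KO Th1 cells (labelled Tbet tm1, day 7, no vector), set against WT replicate 2, gave another pair with no shared library. There 106 of 8092 genes were 2-fold lower in T-bet KO (1.31%) and 134 higher (1.66%). Of the 177 genes lower in both STAT4 pairs, 35 were 2-fold lower in T-bet KO (19.8%) and 9 higher, with a median of −0.30; of the 26 higher genes 8 were higher. Nkg7, at 9.50 FPKM in T-bet KO against 178.9 FPKM in WT replicate 2, Ccl3, at 294.6 FPKM in T-bet KO against 1079 FPKM in WT replicate 2, and Ifng, at 454.5 FPKM in T-bet KO against 3212 FPKM in WT replicate 2, were among the lower. Plac8, at 518.7 FPKM in T-bet KO against 711.9 FPKM in WT replicate 2, and Tmem159, at 40.2 FPKM in T-bet KO against 43.0 FPKM in WT replicate 2, were not 2-fold lower. Ubd was among the 9 higher, at 15.1 FPKM in T-bet KO against 0.491 FPKM in WT replicate 2. Each of these values rests on 1 library per group.

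**Figure D5:**
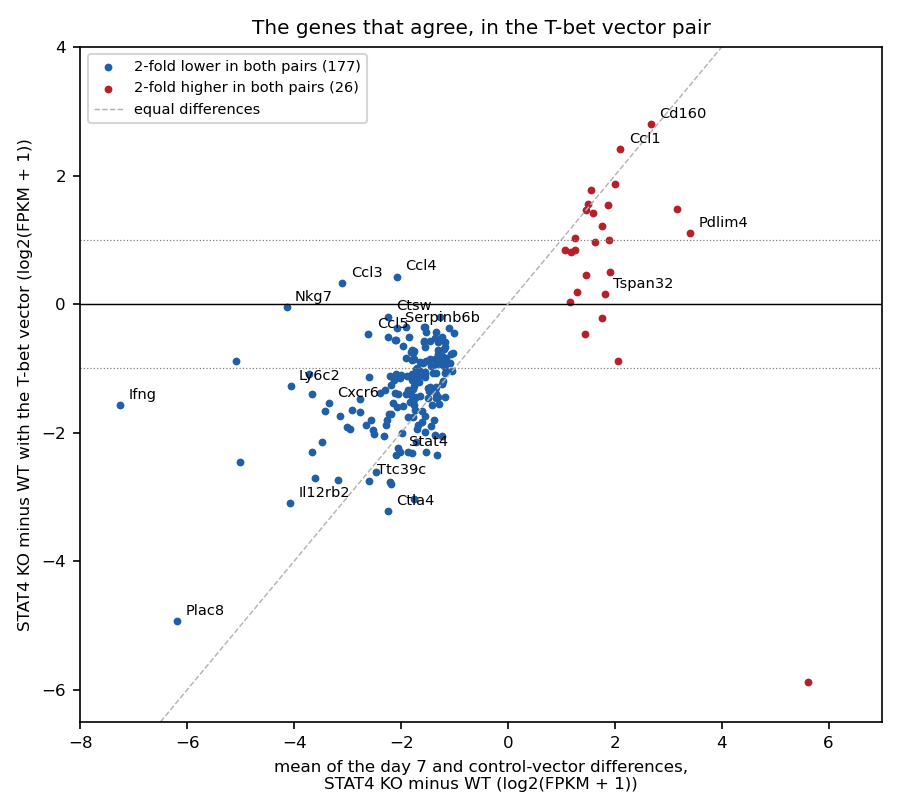
The 177 genes 2-fold lower (blue) and 26 genes 2-fold higher (red) in both pairs, by the mean of those 2 differences (horizontal axis) and the STAT4 KO minus WT difference in the T-bet vector pair (vertical axis), both on the log2(FPKM + 1) scale; dotted lines mark 2-fold and the dashed line equal differences. Plac8 and Il12rb2 stay below the lower dotted line, while Nkg7, Ccl3 and Ccl4 lie near 0.

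WT replicate 2 was not used in the choice of genes, while the day 7 STAT4 KO library it is set against here was, so these counts are a description. For 170 of the 177 genes lower in both pairs, day 7 STAT4 KO was below both WT libraries (96%, against 25.3% of all genes compared), and for 131 it was at least 2-fold below replicate 2 (74%), against 14.5% of all genes compared. For 24 of the 26 higher genes STAT4 KO was above both WT libraries (92.3%, against 43.4% of all genes compared), and for 19 at least 2-fold above replicate 2 (73.1%), against 22.5% of all genes compared. In the day 7 class with values in all libraries, STAT4 KO was above both WT libraries for 142 of 155 higher genes (91.6%, against 43.4% of all genes) and below both for 63 of 74 lower genes (85.1%, against 25.3%). The large distance between the WT libraries bears on these counts: with replicate 2 in place of replicate 1 the day 7 class grew to 2327 genes.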

How the data were processed

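The authors deposited 1 table of FPKM values per RNA library, made with TopHat and Cufflinks on mouse build mm9 per the submitters' processing notes; no version or annotation is stated there. Per the labels, total RNA was sequenced as single reads of 100 cycles. Read counts and depth are unknown, so count models were not used. From these values, differences of log2(FPKM + 1) were fitted with limma 3.58.1 in R 4.3.3 (empirical Bayes with a trend) on 12 of the 14 RNA libraries, leaving out WT Th1 replicate 2 and T-bet KO; the spread came from the disagreement of the 2 STAT4 pairs and of 3 STAT6 KO pairs of Th2 cells, 3 residual degrees of freedom for the mean effect and 2, from the STAT6 pairs alone, for the difference between cultures. Calls used Benjamini-Hochberg adjusted p under 0.05 over 8155 genes. Of 23700 entries, 48 failed estimates were left out, and symbols at several loci and small RNA genes were not named, except the 1 small RNA called in the difference test, which was chosen after its values were seen. On simulated data the mean-effect fit called 84 of 100 genes changed by 1, 98 of 100 changed by 2 and 18 unchanged genes. The fit of the difference between cultures called 0, 55 and 4 of these groups. The simulated noise was independent and normal, with the spread of the fit itself, and the simulated mean effect was equal in both cultures. These rates need not hold for the real data. There, 47 of the 177 genes 2-fold lower in both pairs were called. Named were Stat4, Tbx21, Ifng and the IL-12 and IL-18 receptor genes, the 12 largest falls and 10 largest rises (7 were found) called and 2-fold in both pairs, the 6 largest gaps per differing class and members of the gene lists. Some genes that the rule names are not reported here. Members and lists were chosen with earlier results of these data known. Alternatives varied the pseudocount, filter, scaling, WT library, libraries fitted and fold limit. Figures used matplotlib 3.10.9.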

Additional observations from a re-analysis of the deposited data

Results flagged for a closer look

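Mir467f, listed on mm9 chromosome 11 from 69448902 to 69449021, was the 1 gene whose STAT4 KO effect differed between the cultures by the limma test (gap of 9.24 ± 0.377 on the log2(FPKM + 1) scale, adjusted p = 0.0333). It was listed at 24.56 FPKM in STAT4 KO, against 0 FPKM in WT, at day 7, and at 0 FPKM in STAT4 KO, against 22.72 FPKM in WT, at day 5. No fold is given against a library listed at 0. The Cufflinks intervals of STAT4 KO and WT overlapped in both pairs. The call was lost with a pseudocount of 0.1 and with a filter of 10 FPKM.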

How the results depend on the processing

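By replicate number, no paired analysis was possible because the RNA labels give no replicate numbers that STAT4 KO and WT share. The pairs used here match STAT4 KO with WT of the same culture, by their labels. The main common effect is the mean of the differences within these culture pairs. Counts are given lower first and higher second. The mean effect of both pairs, 60 and 12 genes, gave 2 and 0 with no filter, 7 and 2 with WT replicate 2 in place of replicate 1, 20 and 3 with the mean of both WT replicates, 191 and 34 in the 4 libraries with a culture term, 1 and 1 there without it, 187 and 32 in 6 Th1 libraries, and 1 to 3 and 0 to 3 with 1 pair left out; higher calls were 20 median-centred, 21 after quantile normalization and 32 without small RNA genes. All 9 genes called with WT replicate 2 in place were among the 72, as were 65 of the 225 called in the 4 libraries. The difference between cultures, 0 and 1, gave 58 and 23 with no filter and 767 and 1512 with WT replicate 2; higher calls were 0 with a pseudocount of 0.1, at 10 FPKM, without small RNA genes and with the spread from the no-vector and control-vector Th2 pairs alone. Genes 2-fold lower in both pairs, 177, were 99 with a pseudocount of 5, 116 at 10 FPKM, 384 at 1.5-fold and 67 at 3-fold; those higher, 26, were 13, with that pseudocount, 174 at 1.5-fold and 8 at 3-fold. Opposite genes, 9, were 26 with WT replicate 2, 40 at 1.5-fold and 4 at 3-fold. Genes of the day 7 pair alone, 232, were 89 with a pseudocount of 5, 140 at 10 FPKM, 2327 with WT replicate 2, 798 with the mean of both, 882 at 1.5-fold and 41 at 3-fold. Genes of the day 5 pair alone, 45, were 24, 25, 89 with no filter, 71 with WT replicate 2, 223 at 1.5-fold and 13 at 3-fold. Il12rb1 turned to −0.44 with WT replicate 2 and to −0.026 with the mean of both. Of 215 values for named genes, 191 kept direction and call and 21 lost the call, 11 of them with WT replicate 2, 8 with the mean of both and 2 with a pseudocount of 0.1. The cause of these moves was not tested.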
